A study of Homo sapiens with 6 samples.

Results

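The genes described here encode the subunits of the mitochondrial respiratory chain and of ATP synthase. They were chosen by gene symbol alone: the NDUFA, NDUFB, NDUFC, NDUFS and NDUFV genes of complex I, the SDHA to SDHD genes of complex II, the UQCR genes and CYC1 of complex III, the COX4 to COX8 genes of complex IV, the ATP5 genes of complex V, CYCS, and the protein-coding genes of the mitochondrial genome. By this rule 99 of the 15598 genes in the deposited table were members, 86 encoded in the nucleus and 13 in the mitochondrial genome. NDUFA4 and NDUFA4L2 were counted with complex IV, where the NDUFA4 protein is now placed.

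The compared cells were MHCC97H, a human hepatocellular carcinoma line described in the labels as highly metastatic, with an shRNA against HNRNPC (shHNRNPC, 3 libraries) or a control shRNA (shcontrol, 3 libraries). HNRNPC encodes a nuclear RNA-binding protein that coats new transcripts at runs of uridine and influences their splicing. All libraries came from this 1 line, and the labels tell apart 1 knockdown construct. The design text speaks of independent replicates without naming separate cultures, so the p-values measure the spread between these libraries, which may be technical.

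Complexes I and II pass electrons from NADH and succinate to coenzyme Q, complex III passes them on to cytochrome c, and complex IV passes them to oxygen. Complexes I, III and IV pump protons as they work, and ATP synthase, complex V, uses the returning protons to make ATP. Most subunits are translated from nuclear transcripts and imported, while the mitochondrial genome encodes a small hydrophobic core in every complex except complex II. Mitochondrial genes are transcribed as long polycistronic RNAs that are then cut into shorter messages, so 2 neighbouring genes can still end at different RNA levels.

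Library totals ran from 15563077 to 18328475 counts, and 11831 genes passed the filter on low counts. Levels are CPM, counts scaled to a common library size, on TMM-scaled library sizes. HNRNPC had 1010, 1164 and 1042 counts in shHNRNPC libraries, against 14409, 13507 and 15908 counts in shcontrol libraries. Its log2 fold change was −3.77 (SE 0.030, edgeR adjusted p = 5.04e-55). Of the liver epithelium markers, KRT8 averaged 1158 ± 8.20 CPM in shHNRNPC cells and 1006 ± 7.06 CPM in shcontrol cells (SD, n = 3 each), whereas ALB had at most 1 count and HNF4A at most 7 counts in any library. Of the leukocyte, fibroblast and endothelial markers, CD68, COL1A1 and PDGFRB exceeded 22 counts in a library. CD68, of whose annotated exon sequence 85.8% overlaps another gene, averaged 64.8 ± 2.12 CPM in shHNRNPC cells and 43.2 ± 3.64 CPM in shcontrol cells, and its part in the results below was not tested.

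A gene was called when its edgeR quasi-likelihood p, adjusted by Benjamini-Hochberg over all tested genes, was under 0.05. The background of such calls was high: 61.1% of tested genes were called, 29.8% as higher and 31.3% as lower in shHNRNPC cells. Of the 88 members that passed the filter, 49 were higher, 18 were lower and 21 had no call. The 76 tested nuclear members had 48 higher (63.2%) and 9 lower (11.8%), with a median log2 fold change of 0.15, while the median over all tested genes was −0.004. The 12 tested mitochondrially encoded members had 1 higher and 9 lower, with a median of −0.12. The 3 libraries of each group did not overlap for 65 members (73.9%), against 64.0% of all tested genes. The changes were small: 35 of the 57 called nuclear members changed less than 1.2-fold, and ATP5MPL was the single called member past 1.5-fold. The authors' deposited table, with its own adjusted p under 0.05, has 46 nuclear members higher and 7 lower, and 1 mitochondrially encoded member higher and 8 lower.

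**Figure D1:**
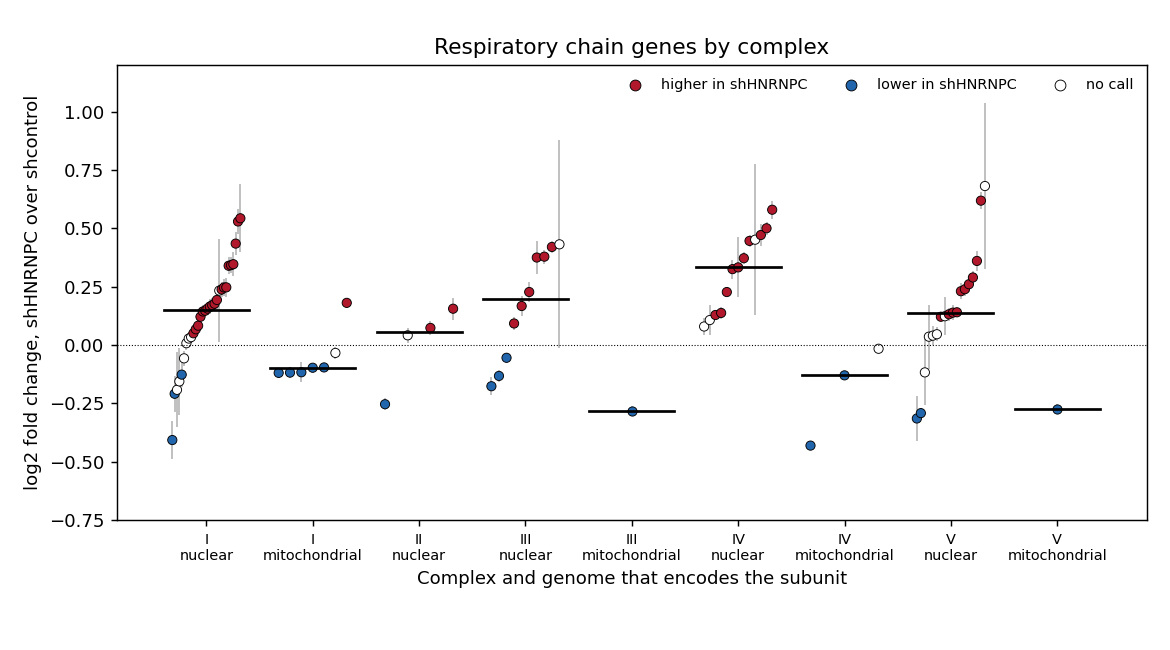
Log2 fold change (vertical axis, shHNRNPC over shcontrol) of the tested respiratory chain genes, grouped along the horizontal axis by complex and by the genome that encodes them, with CYCS left out since it belongs to no complex. Each point is a gene with its standard error, red for higher, blue for lower and white for no call, and black bars are group medians. Nuclear medians lie between 0.06 in complex II and 0.33 in complex IV, and mitochondrial groups have medians below 0.

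Most members have short transcripts, and fold changes in these libraries moved with transcript length. The longest coding transcript had a median of 1260 bases among the nuclear members, against 3263 bases over all genes. Of the 1165 tested genes with a transcript of up to 1500 bases, 48.1% were higher and 9.79% lower, with a median log2 fold change of 0.15. The 43 tested nuclear members of this length had 31 higher (72.1%) and 2 lower (4.65%), with a median of 0.17. The 33 longer nuclear members had 17 higher (51.5%) and 7 lower (21.2%), with a median of 0.09, against a median of −0.03 over all longer genes. With a correction for GC content and length, the nuclear members had 31 higher and 28 lower and a median of 0.06, and over all genes 22.9% were higher and 34.2% lower. Of the 48 nuclear members called higher, 27 were higher after the correction too, 13 were then called lower and 8 had no call. The part of transcript length and GC content in these results was not tested further, and values after the correction are given below where they change the call of a gene described.

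**Figure D2:**
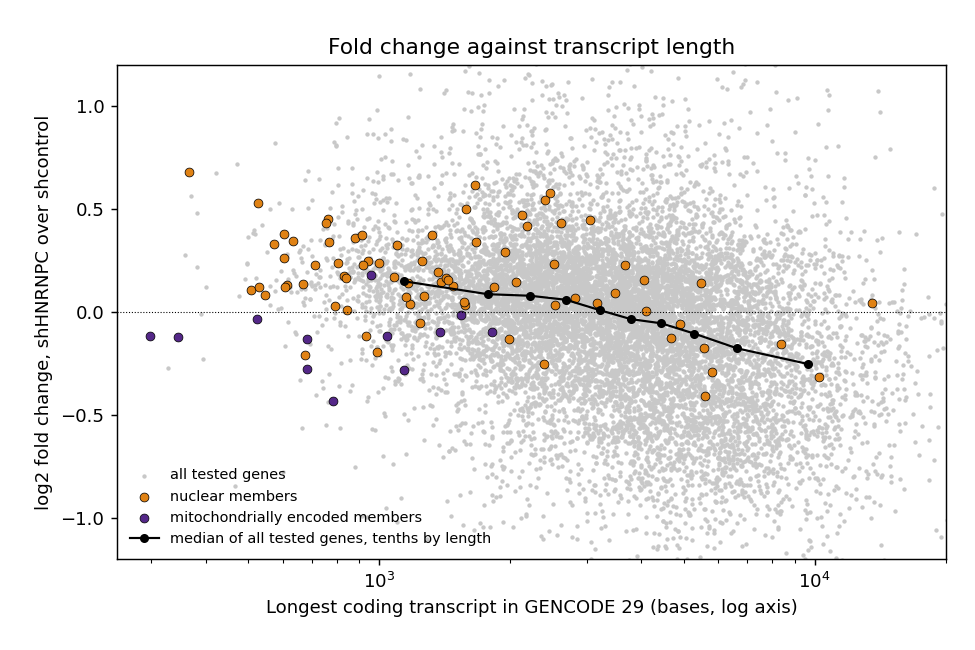
Log2 fold change (vertical axis, shHNRNPC over shcontrol) against the length of the longest coding transcript (horizontal axis, bases, log scale) for all tested genes in grey, nuclear members in orange and mitochondrially encoded members in purple. The black line joins medians of all tested genes in 10 equal bins by length, which run between 0.15 for the shortest and −0.25 for the longest, and 259 genes lie outside the axes.

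Upstream sequences of the nuclear members are shown for the transcription factors long linked to respiratory genes, NRF1, the ETS factor GABPA and YY1. RefSeq sequences of GRCh38.p14 were found for 66 of the 86 nuclear members. In the 250 bases before the RefSeq start, the letters CGCATGCG, the core of the NRF1 motif, occurred in 9 of 66 members (13.6%), against 394 of 15843 coding genes (2.49%). These letters were shortened after a longer form had been searched and seen in fewer members. The comparison is therefore not an independent test of an excess among members. The 15843 coding genes were not limited to genes tested in these libraries. The ETS letters CCGGAAG occurred in 15 of 66 members (22.7%), against 11.8% of coding genes. The YY1 letters AAGATGGC occurred in 1 of 66 members, ATP5PF, against 1.39% of coding genes. Both strands were searched, none of the motifs contains another, and a match shows only that the letters are present. Of the 9 genes with the NRF1 letters, 7 were called higher, against 63.2% of the tested nuclear members and 29.8% of all tested genes. The 7 were ATP5F1C, ATP5MC2, COX6A1, NDUFB4, NDUFS6, NDUFS7 and SDHD, and ATP5ME and ATP5PF had no call. Corrected for GC content and length, NDUFS6 and NDUFS7 among these were called lower, as was ATP5PF, and COX6A1 had no call. Of the 15 genes with the ETS letters, 11 were called higher, against 63.2% of the tested nuclear members and 29.8% of all tested genes, none was lower, ATP5PF, COX8A and NDUFA13 had no call, and NDUFS3 was not tested. Of these 11, COX5B, COX6B1, NDUFB7 and SDHB were called lower with the correction, and COX6A1, NDUFA1, UQCR11 and UQCRQ had no call. ATP5PD, SDHD and UQCRH stayed higher. ATP5PF (−0.21), COX8A (−0.21) and NDUFA13 (−0.47), without a call before, were called lower with the correction. The sequences printed here are those of COX6A1 and ATP5MC2, the called genes with the NRF1 letters and the highest fold changes, of UQCRH and UQCR11, the same for the ETS letters, and of ATP5PF, which holds all 3 kinds of letters. They are read 5′ to 3′ on the gene's strand, with the motif letters, or their reverse complement, in capitals. COX6A1 lies at chr12:120437863-120438112 (+), ATP5MC2 at chr12:53676084-53676333 (−), UQCRH at chr1:46303448-46303697 (+), UQCR11 at chr19:1605463-1605712 (−) and ATP5PF at chr21:25735055-25735304 (−). The deposited locations differ from RefSeq: COX6A1 starts there at 120438090 and UQCRH at 46303631, inside the printed stretches. By those locations the marked CTTCCGG of both genes lies within the gene and not upstream of it.
COX6A1: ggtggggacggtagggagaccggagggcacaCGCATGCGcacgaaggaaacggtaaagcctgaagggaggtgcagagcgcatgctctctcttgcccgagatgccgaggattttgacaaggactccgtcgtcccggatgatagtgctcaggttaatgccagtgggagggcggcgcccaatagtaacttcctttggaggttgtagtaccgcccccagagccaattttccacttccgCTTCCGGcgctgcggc
ATP5MC2: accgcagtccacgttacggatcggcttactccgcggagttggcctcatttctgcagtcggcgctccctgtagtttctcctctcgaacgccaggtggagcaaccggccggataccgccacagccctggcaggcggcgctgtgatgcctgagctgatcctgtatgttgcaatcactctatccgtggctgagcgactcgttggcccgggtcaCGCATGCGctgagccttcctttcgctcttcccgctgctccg
UQCRH: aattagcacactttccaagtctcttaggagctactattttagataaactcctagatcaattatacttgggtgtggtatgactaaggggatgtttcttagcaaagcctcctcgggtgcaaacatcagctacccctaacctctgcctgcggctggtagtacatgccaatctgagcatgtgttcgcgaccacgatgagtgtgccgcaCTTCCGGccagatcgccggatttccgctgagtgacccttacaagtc
UQCR11: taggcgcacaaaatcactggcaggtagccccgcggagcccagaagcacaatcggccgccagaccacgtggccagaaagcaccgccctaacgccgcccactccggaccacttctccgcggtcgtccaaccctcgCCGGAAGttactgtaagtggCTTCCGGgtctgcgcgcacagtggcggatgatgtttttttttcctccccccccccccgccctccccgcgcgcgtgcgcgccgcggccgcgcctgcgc
ATP5PF: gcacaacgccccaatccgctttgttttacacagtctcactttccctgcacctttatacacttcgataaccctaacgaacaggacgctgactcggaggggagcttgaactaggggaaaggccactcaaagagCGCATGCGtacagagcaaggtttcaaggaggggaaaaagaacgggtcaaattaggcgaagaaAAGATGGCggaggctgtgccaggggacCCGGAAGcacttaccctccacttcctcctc

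Complex I, the NADH dehydrogenase, had 30 of its 34 nuclear members tested, with 20 higher, 3 lower and 7 without a call, and a median log2 fold change of 0.15. After the GC and length correction the split was 10 higher and 12 lower, with a median of −0.03. Among the core subunits, which carry the flavin and the iron-sulfur clusters, 3 of 5 tested genes were higher and none was lower, while the accessory subunits had 17 of 25 higher and 3 lower. Corrected for GC content and length, the core subunits had 1 higher and 3 lower, with a median of −0.14 in place of 0.07, and the accessory subunits had 9 higher and 9 lower. NDUFV2, a core iron-sulfur subunit, averaged 191 ± 13 CPM in shHNRNPC cells and 161 ± 8.18 CPM in shcontrol cells (SD, n = 3 each), a log2 fold change of 0.25 (edgeR adjusted p = 1e-07). Annotated exons of another gene cover 28.4% of NDUFV2, and without a stated use of strand their reads cannot be told apart. NDUFV1, which binds NADH and the flavin, averaged 319 ± 7.51 CPM in shHNRNPC cells and 311 ± 1.15 CPM in shcontrol cells, without a call (adjusted p = 0.245), and was called lower with the correction (−0.16).

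The 4 nuclear complex I genes with the smallest adjusted p all encode accessory subunits of the membrane arm. NDUFB1 had 54.4, 57.2 and 56.5 CPM in shHNRNPC libraries, against 40.3, 40.0 and 36.4 CPM in shcontrol libraries. The groups were well apart, and the log2 fold change was 0.53 (SE 0.054, edgeR adjusted p = 8.03e-12). NDUFB3 had 60.0, 62.7 and 57.1 CPM in shHNRNPC libraries, against 45.5, 43.0 and 44.4 CPM in shcontrol libraries, and again every knockdown library was the higher. Its log2 fold change was 0.43 (adjusted p = 4.71e-10). NDUFB2 had 155, 164 and 147 CPM in shHNRNPC libraries, against 125, 123 and 120 CPM in shcontrol libraries, a log2 fold change of 0.34 (adjusted p = 1.53e-11). NDUFA1 had 143, 153 and 148 CPM in shHNRNPC libraries, against 123, 117 and 112 CPM in shcontrol libraries, also without overlap. Its log2 fold change was 0.34 (adjusted p = 2.83e-11), and after the GC and length correction 0.06 with no call. Annotated exons of another gene cover 44.5% of NDUFA1, 35.9% of NDUFB2 and 19.8% of NDUFB3, and without a stated use of strand their reads cannot be told apart. NDUFA11, which bridges membrane subunits, had 6.51, 5.70 and 7.01 CPM in shHNRNPC libraries and 4.53, 4.30 and 4.36 CPM in shcontrol libraries, a log2 fold change of 0.54 (adjusted p = 0.00129).

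The 3 lower nuclear genes of complex I were NDUFA5, NDUFS4 and NDUFV3. NDUFA5, an accessory subunit of the matrix arm, had 18.5, 19.0 and 16.1 CPM in shHNRNPC libraries, against 25.3, 24.3 and 21.6 CPM in shcontrol libraries. All knockdown libraries were lower, with a log2 fold change of −0.41 (SE 0.081, edgeR adjusted p = 2.64e-05), but after the GC and length correction it was 0.01 with no call. NDUFS4, a matrix-arm subunit mutated in Leigh syndrome, had 17.6, 20.9 and 20.3 CPM in shHNRNPC libraries, against 22.8, 22.5 and 22.7 CPM in shcontrol libraries. This was a log2 fold change of −0.21 (adjusted p = 0.0175), and without shHNRNPC library SI_3 −0.14 (adjusted p = 0.149), and the call was also lost with DESeq2 (adjusted p = 0.0835). NDUFV3 averaged 43.8 ± 1.39 CPM in shHNRNPC cells and 47.8 ± 0.912 CPM in shcontrol cells, a log2 fold change of −0.13 (adjusted p = 0.034). Its adjusted p was between 0.0688 and 0.130 when SI_3_2, SI_3_3, NC_3_2 or NC_3_3 was left out, and 0.127 with DESeq2. Leaving out 1 library also ended the calls of NDUFS5 (without SI_3, adjusted p = 0.162), NDUFB7 (without NC_3_3, 0.118), NDUFS7 (without SI_3, 0.0520, SI_3_2, 0.0656, or NC_3_3, 0.111) and NDUFB9 (without SI_3_2, 0.137, SI_3_3, 0.0627, NC_3, 0.0842, or NC_3_3, 0.144). With the correction NDUFS5 (−0.17), NDUFB7 (−0.23) and NDUFS7 (−0.14) were called lower, and NDUFB9 (−0.01) had no call.

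Complex II, succinate dehydrogenase, is encoded wholly in the nucleus, and its 4 subunits split, with 2 higher, 1 lower and 1 without a call. Of all tested genes 29.8% were higher and 31.3% lower. With the correction 2 subunits were higher and 2 lower. SDHA, the flavoprotein that oxidises succinate, had 268, 275 and 273 CPM in shHNRNPC libraries, against 321, 327 and 325 CPM in shcontrol libraries. Each knockdown library was lower than each control library, and the log2 fold change was −0.25 (SE 0.025, edgeR adjusted p = 3.84e-12). SDHD, a membrane anchor, had 65.4, 66.4 and 64.6 CPM in shHNRNPC libraries, against 56.1, 59.4 and 60.8 CPM in shcontrol libraries, a log2 fold change of 0.16 (adjusted p = 0.00341). SDHB, the iron-sulfur subunit, had 218, 227 and 216 CPM in shHNRNPC libraries, against 208, 214 and 207 CPM in shcontrol libraries. The fit gave a log2 fold change of 0.07 (adjusted p = 0.0239), the call was lost without SI_3_2 (adjusted p = 0.177), NC_3 (0.0673) or NC_3_3 (0.111), with library size alone (0.322) and with DESeq2 (0.0545), and after the GC and length correction the value was −0.12 with a call in the lower direction. SDHC, the other anchor, had 179, 174 and 163 CPM in shHNRNPC libraries, against 164, 169 and 167 CPM in shcontrol libraries, with overlap and no call (adjusted p = 0.27). After the correction SDHC had a log2 fold change of 0.32 and was called higher.

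Complex III, the cytochrome bc1 complex, had 6 of 10 nuclear members higher (60.0%), 3 lower (30.0%) and 1 without a call. Of all tested genes 29.8% were higher and 31.3% lower. With the correction complex III had 4 higher and 2 lower. The small subunits accounted for 5 of the 6 higher genes. UQCRH, the hinge protein, had 210, 210 and 202 CPM in shHNRNPC libraries, against 159, 163 and 157 CPM in shcontrol libraries. The log2 fold change was 0.38 (SE 0.030, edgeR adjusted p = 4.06e-15). UQCRHL, a near-identical copy of UQCRH, had 279, 287 and 280 CPM in shHNRNPC libraries, against 210, 209 and 213 CPM in shcontrol libraries, a log2 fold change of 0.42 (adjusted p = 2.48e-18). How the counting shared reads between these 2 copies is not given, so their separate levels are uncertain. UQCR11 had 32.3, 30.2 and 29.8 CPM in shHNRNPC libraries, against 21.8, 26.3 and 23.2 CPM in shcontrol libraries, a log2 fold change of 0.37 (adjusted p = 1.23e-05), with no call after the GC and length correction (0.13).

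Among the lower genes of complex III, UQCRC1, a matrix-side core protein, had 389, 401 and 394 CPM in shHNRNPC libraries, against 448, 424 and 427 CPM in shcontrol libraries. This was a log2 fold change of −0.13 (SE 0.024, edgeR adjusted p = 6.39e-06). UQCRB, a small subunit near the coenzyme Q site, had 88.1, 87.4 and 86.9 CPM in shHNRNPC libraries, against 98.7, 103 and 95.5 CPM in shcontrol libraries, without overlap. The fit gave a log2 fold change of −0.18 (adjusted p = 0.000126), but after the GC and length correction 0.16 with a call in the higher direction. CYC1, cytochrome c1, had 1188, 1178 and 1191 CPM in shHNRNPC libraries, against 1278, 1210 and 1206 CPM in shcontrol libraries. The log2 fold change was −0.05 (adjusted p = 0.0166), and the call was lost without SI_3_2 (adjusted p = 0.0672) or NC_3 (0.185) and with upper quartile scaling (0.0767). Corrected for GC content and length, CYC1 was at −0.32 and called lower. CYCS, the soluble cytochrome c between complexes III and IV, had 230, 233 and 221 CPM in shHNRNPC libraries, against 231, 226 and 224 CPM in shcontrol libraries. The groups overlapped, with a log2 fold change of 0.01 (adjusted p = 0.879), which became 0.19 with a call after the correction, and 40 named pseudogenes of CYCS are annotated.

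Complex IV, cytochrome c oxidase, had the highest nuclear median, 0.33. Of its 13 tested genes 10 were higher (76.9%) and none was lower, against 29.8% and 31.3% of all tested genes. Corrected for GC content and length, the group had a median of 0.15, with 6 higher and 5 lower. Its nuclear subunits surround the catalytic core, and the 3 highest called values were those of COX7B, COX7C and NDUFA4. COX7B had 113, 114 and 117 CPM in shHNRNPC libraries, against 78.5, 75.3 and 76.0 CPM in shcontrol libraries. This was a 1.49-fold difference, a log2 fold change of 0.58 (SE 0.038, edgeR adjusted p = 1.2e-17). COX7C had 328, 336 and 318 CPM in shHNRNPC libraries, against 228, 238 and 229 CPM in shcontrol libraries, a log2 fold change of 0.50 (adjusted p = 6.99e-21). NDUFA4 had 77.1, 78.0 and 75.6 CPM in shHNRNPC libraries, against 55.1, 58.0 and 53.5 CPM in shcontrol libraries, a log2 fold change of 0.47 (adjusted p = 1.81e-12). All 3 genes were apart between the groups, and their log2 fold changes after the correction were 0.70, 0.66 and 0.61.

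Several complex IV subunits exist as tissue isoforms. COX7A2, the liver-type form, had 347, 356 and 338 CPM in shHNRNPC libraries, against 265, 274 and 266 CPM in shcontrol libraries, a log2 fold change of 0.37 (edgeR adjusted p = 5.64e-17). COX7A2L, which takes part in joining complexes III and IV, had 261, 270 and 264 CPM in shHNRNPC libraries, against 194, 197 and 192 CPM in shcontrol libraries, a log2 fold change of 0.45 (adjusted p = 7.37e-19). COX7A1, the heart and muscle form, stayed between 0.822 and 2.05 CPM with overlapping groups and no call (adjusted p = 0.227). COX4I1 had 693, 720 and 672 CPM in shHNRNPC libraries, against 633, 643 and 630 CPM in shcontrol libraries, a log2 fold change of 0.13 (adjusted p = 2.86e-06). COX6B1 had 342, 340 and 340 CPM in shHNRNPC libraries, against 310, 306 and 313 CPM in shcontrol libraries, a log2 fold change of 0.14 (adjusted p = 3.81e-06). COX4I1 and COX6B1 were called lower after the GC and length correction, at −0.08 and −0.16. Their partners COX4I2, COX6B2 and NDUFA4L2 had at most 4 counts in any library, and COX6A2 had at most 11.

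COX6A1 had 7.85, 7.07 and 8.09 CPM in shHNRNPC libraries, against 6.70, 5.63 and 5.92 CPM in shcontrol libraries, a log2 fold change of 0.33 (edgeR adjusted p = 0.0234). Its call was lost without SI_3 (adjusted p = 0.0613), SI_3_3 (0.0857), NC_3_2 (0.0853) or NC_3_3 (0.0645), with DESeq2 (0.101), and after the GC and length correction (0.03). COX8A had 37.3, 37.2 and 39.4 CPM in shHNRNPC libraries, against 38.6, 36.1 and 31.4 CPM in shcontrol libraries. The groups overlapped, with no call (adjusted p = 0.144), although without NC_3 the adjusted p was 0.0210 and after the correction the gene was called lower (−0.21).

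Complex V, ATP synthase, had 18 of 20 nuclear members tested, with 10 higher (55.6%), 2 lower (11.1%) and 6 without a call, and a median log2 fold change of 0.14. Of all tested genes 29.8% were higher and 31.3% lower, and of those with a transcript of up to 1500 bases 48.1% and 9.79%. With the correction complex V had 8 higher and 7 lower, with a median of 0.08. ATP5MPL, a small membrane subunit, had 132, 126 and 128 CPM in shHNRNPC libraries, against 83.8, 83.6 and 83.8 CPM in shcontrol libraries. This 1.54-fold difference (log2 0.62, SE 0.037, edgeR adjusted p = 2.58e-19) was 0.59 on the log2 scale after the GC and length correction. ATP5MD, another small membrane subunit, which holds ATP synthase dimers together, had 93.6, 92.8 and 89.9 CPM in shHNRNPC libraries, against 72.6, 74.3 and 68.5 CPM in shcontrol libraries, a log2 fold change of 0.36 (adjusted p = 3.3e-10). ATP5ME, also of this kind, had 22, 25 and 16 counts in shHNRNPC libraries and 20, 7 and 12 counts in shcontrol libraries, a fitted log2 fold change of 0.68 with a standard error of 0.355 and no call (adjusted p = 0.0932).

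The catalytic F1 part had 4 of 5 genes higher and 1 lower, but 2 higher and 3 lower with the correction. Over all tested genes 29.8% were higher and 31.3% lower. ATP5F1A, the alpha subunit, had 514, 514 and 490 CPM in shHNRNPC libraries, against 607, 634 and 618 CPM in shcontrol libraries. Every knockdown library was lower, with a log2 fold change of −0.29 (SE 0.023, edgeR adjusted p = 3.29e-15). ATP5F1B, the beta subunit, averaged 1749 ± 31.2 CPM in shHNRNPC cells and 1608 ± 17 CPM in shcontrol cells (SD, n = 3 each), a log2 fold change of 0.12 (adjusted p = 1.39e-07). Corrected for GC content and length, ATP5F1A was lower (−0.20) and ATP5F1B (−0.08) and ATP5F1D (−0.09) were called lower too.

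The 3 genes for the c subunit of the rotor ring, which encode the same mature protein, were all higher. ATP5MC2 had 227, 228 and 228 CPM in shHNRNPC libraries, against 186, 194 and 180 CPM in shcontrol libraries, a log2 fold change of 0.29 (edgeR adjusted p = 6.85e-12). ATP5MC1 had 230, 225 and 223 CPM in shHNRNPC libraries, against 206, 208 and 205 CPM in shcontrol libraries, a log2 fold change of 0.13 (adjusted p = 6.09e-05). ATP5MC3 had 933, 947 and 924 CPM in shHNRNPC libraries, against 848, 862 and 834 CPM in shcontrol libraries, a log2 fold change of 0.14 (adjusted p = 5.18e-08). After the correction ATP5MC2 was 0.08, ATP5MC1 was −0.17 and ATP5MC3 was 0.40, each with a call. In the peripheral stalk, which holds F1 still, 1 of 4 genes was higher (ATP5PD, 0.26) and none was lower, whereas with the correction ATP5PD (0.13) and ATP5PB (0.13) were higher and ATP5PF (−0.21) and ATP5PO (−0.36) lower. ATP5S, an associated coupling factor, had 11.7, 14.2 and 11.3 CPM in shHNRNPC libraries, against 17.2, 15.2 and 14 CPM in shcontrol libraries. Its groups overlapped, its log2 fold change was −0.31 (adjusted p = 0.00509), and after the correction it was 0.03 with no call.

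Some members, core subunits among them, had almost no counts. NDUFS3, a core subunit of complex I, had 0, 1 and 1 counts in shHNRNPC libraries and 1, 0 and 1 counts in shcontrol libraries. NDUFA7 had 0, 0 and 0 counts in shHNRNPC libraries and 0, 1 and 0 counts in shcontrol libraries. UQCRC2, the partner of UQCRC1, had 13, 8 and 13 counts in shHNRNPC libraries and 5, 10 and 10 counts in shcontrol libraries, while UQCRC1 was at 389 CPM or more. ATP5IF1, the inhibitor of ATP hydrolysis, had 1 count in SI_3_3 and 0 in every other library. NDUFA3 had at most 2 counts, NDUFB8 at most 12, ATP5MGL at most 3 and MT-ATP8 at most 10 in any library. Together with COX4I2, COX6A2, COX6B2 and NDUFA4L2 these are the 11 members that failed the filter, and these counts cannot be read as levels of expression. In GENCODE 29, exons of another gene cover at least 10% of the exon sequence of 5 of the 10 untested nuclear members, of 8 of the 10 tested nuclear members under 10 CPM in both groups, and of 20 of the other 66. For NDUFB8 the covered share is 48.5% and for NDUFS3 22.4%, but for UQCRC2 and ATP5IF1 it is 0. The part of such overlaps in the low counts was not tested. Of the 10 tested members under 10 CPM, NDUFA11 and COX6A1 were called and the other 8 were not.

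The mitochondrially encoded genes were among the most abundant members, and 9 of the 12 tested were lower, against 31.3% of all tested genes. In bulk RNA, fewer cells of a type and less RNA per cell cannot be told apart, and fewer genome copies and fewer transcripts per copy likewise. MT-CO3, a core subunit of complex IV, had 1393, 1411 and 1355 CPM in shHNRNPC libraries, against 1860, 1861 and 1887 CPM in shcontrol libraries. It was 1.35-fold lower, a log2 fold change of −0.43 (SE 0.018, edgeR adjusted p = 1e-24). MT-CYB, the cytochrome b of complex III, had 489, 477 and 476 CPM in shHNRNPC libraries, against 581, 593 and 581 CPM in shcontrol libraries, a log2 fold change of −0.28 (adjusted p = 2.39e-15). MT-ATP6, the proton channel subunit of ATP synthase, had 532, 532 and 528 CPM in shHNRNPC libraries, against 643, 646 and 638 CPM in shcontrol libraries, a log2 fold change of −0.27 (adjusted p = 1.65e-15). The groups of these 3 genes were wide apart, and each was lower after the GC and length correction too. MT-CO2, which receives electrons from cytochrome c, had 1371, 1389 and 1371 CPM in shHNRNPC libraries, against 1463, 1496 and 1562 CPM in shcontrol libraries, a log2 fold change of −0.13 (adjusted p = 1.89e-07).

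MT-CO1, the catalytic subunit of complex IV, differed from its neighbours. It had 5644, 5622 and 5478 CPM in shHNRNPC libraries, against 5607, 5618 and 5707 CPM in shcontrol libraries, with overlap and no call (log2 fold change −0.02, edgeR adjusted p = 0.366). Scaled by library size alone it was −0.06 and after the GC and length correction −0.12, both called lower. Per count of MT-CO1, a ratio that needs no scaling between libraries, MT-CO3 had 0.247, 0.251 and 0.247 counts in shHNRNPC libraries, against 0.332, 0.331 and 0.331 in shcontrol libraries. MT-ATP6 per MT-CO1 was 0.0943, 0.0946 and 0.0963 in shHNRNPC libraries, against 0.115, 0.115 and 0.112 in shcontrol libraries. MT-CYB per MT-CO1 was 0.0866, 0.0849 and 0.0869 in shHNRNPC libraries, against 0.104, 0.106 and 0.102 in shcontrol libraries. These ratios were lower in every knockdown library, so the messages of the mitochondrial genome changed unequally.

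The 7 complex I genes of the mitochondrial genome had 5 lower, 1 higher and 1 without a call. Over all tested genes 31.3% were lower and 29.8% higher. MT-ND1 went against the other mitochondrial genes of complex I. It had 1139, 1108 and 1107 CPM in shHNRNPC libraries, against 980, 965 and 1014 CPM in shcontrol libraries. It was 1.13-fold higher, a log2 fold change of 0.18 (SE 0.020, edgeR adjusted p = 1.36e-10), and after the GC and length correction −0.01 with no call. MT-ND1 per MT-CO1 was 0.202, 0.197 and 0.202 in shHNRNPC libraries, against 0.175, 0.172 and 0.178 in shcontrol libraries. MT-ND2 had 605, 598 and 561 CPM in shHNRNPC libraries, against 618, 642 and 653 CPM in shcontrol libraries, a log2 fold change of −0.12 (adjusted p = 3.96e-05). MT-ND3 had 680, 655 and 667 CPM in shHNRNPC libraries, against 734, 734 and 706 CPM in shcontrol libraries, a log2 fold change of −0.12 (adjusted p = 5.43e-06). Both were lower in every knockdown library. MT-ND4 averaged 1662 ± 21.3 CPM in shHNRNPC cells and 1778 ± 32 CPM in shcontrol cells (SD, n = 3 each), a log2 fold change of −0.10 (adjusted p = 8.92e-06). MT-ND5 averaged 718 ± 2.03 CPM in shHNRNPC cells and 768 ± 7.20 CPM in shcontrol cells, a log2 fold change of −0.10 (adjusted p = 5.96e-05).

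MT-ND6, the one protein gene on the light strand, had 328, 317 and 332 CPM in shHNRNPC libraries, against 330, 337 and 333 CPM in shcontrol libraries. The groups overlapped and there was no call (log2 fold change −0.03, edgeR adjusted p = 0.239), but with library size alone (−0.07) and after the GC and length correction (−0.09) it was called lower. MT-ND4L, whose end overlaps the start of MT-ND4, had 94.0, 94.8 and 107 CPM in shHNRNPC libraries, against 110, 112 and 100 CPM in shcontrol libraries. Its groups overlapped, its log2 fold change was −0.12 (adjusted p = 0.0177), and the call was lost without SI_3 (adjusted p = 0.125), SI_3_2 (0.126) or NC_3_2 (0.111) and with DESeq2 (0.0847). Between 22 and 45 nuclear pseudogenes are named for each tested mitochondrial gene in GENCODE 29, and how reads shared with them were counted is not given.

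Per length, the order of the mitochondrial genes was led by MT-CO1 in both groups. MT-CO1 averaged 3620 ± 58.3 CPM per kilobase in shHNRNPC cells and 3660 ± 35.5 CPM per kilobase in shcontrol cells (SD, n = 3 each). MT-CO3 averaged 1768 ± 36.2 CPM per kilobase in shHNRNPC cells and 2384 ± 19.4 CPM per kilobase in shcontrol cells. In shcontrol cells MT-CO3 was thus ahead of MT-CO2 (2203 ± 73.6) and MT-ND3 (2095 ± 47.1). In shHNRNPC cells it was behind MT-CO2 (2013 ± 15.6) and MT-ND3 (1928 ± 36.7). The lowest of the tested genes per kilobase was MT-ND4L, with 332 ± 25.2 in shHNRNPC cells and 361 ± 20.5 in shcontrol cells. Next was MT-ND5, with 396 ± 1.12 in shHNRNPC cells and 424 ± 3.97 in shcontrol cells. How reads across the overlap of MT-ND4L and MT-ND4 were counted is not given. The order is thus one of counts and not of separate messages.

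**Figure D3:**
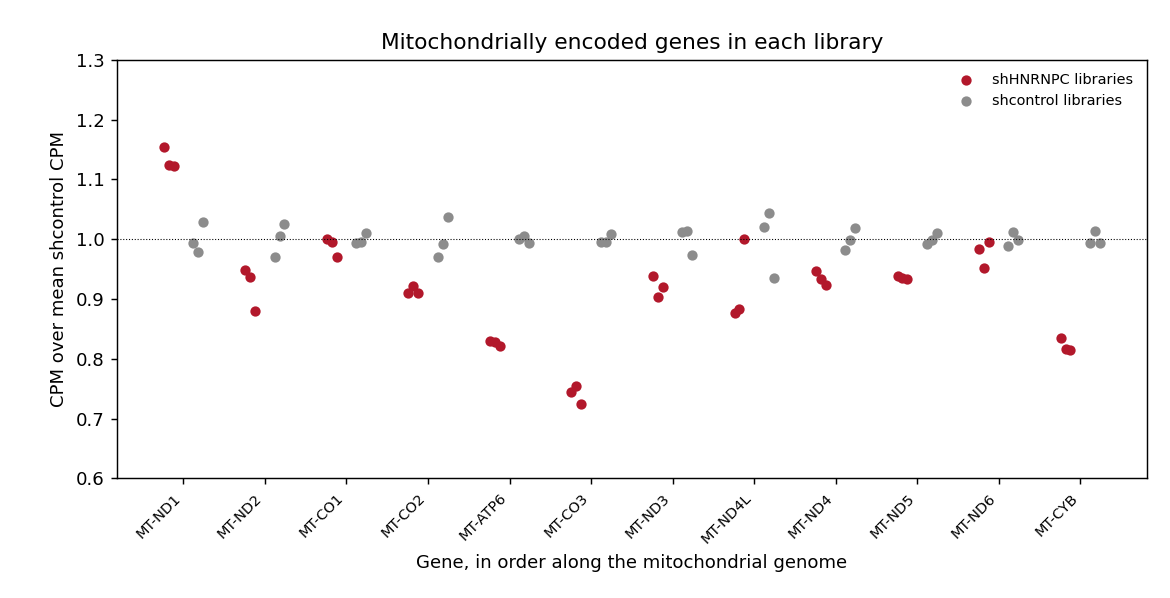
CPM of each tested mitochondrially encoded gene in each library, divided by the mean of the shcontrol libraries (vertical axis, 1.0 is that mean), with genes in their order along the mitochondrial genome on the horizontal axis, shHNRNPC libraries in red left of shcontrol libraries in grey. MT-CO3, MT-CYB and MT-ATP6 lie farthest below the controls, MT-ND1 lies above them, and MT-CO1, MT-ND4L and MT-ND6 overlap with them.

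Summed, the 2 genomes moved apart. The nuclear members took 1.577%, 1.585% and 1.555% of all counts in shHNRNPC libraries, against 1.494%, 1.498% and 1.476% in shcontrol libraries. The mitochondrially encoded members took 1.45%, 1.44% and 1.42% in shHNRNPC libraries, against 1.56%, 1.58% and 1.60% in shcontrol libraries. Mitochondrial over nuclear counts were 0.917, 0.907 and 0.912 in shHNRNPC libraries, against 1.05, 1.05 and 1.08 in shcontrol libraries, without overlap. With 3 libraries a group no exact 2-sided permutation test could reach 0.05, and none was run on these sums. The ratio of summed CPM, shHNRNPC over shcontrol, was 1.09 for the nuclear members, 0.933 for the mitochondrially encoded members and 1.01 for all of them. The last of these depends on the scaling: as a share of all counts, all members took 3.006% in shHNRNPC cells and 3.069% in shcontrol cells. For nuclear members with a transcript of up to 1500 bases the ratio of summed CPM was 1.10, against 1.11 over all genes of that length. For longer nuclear members it was 1.07, against 1.01 over all longer genes, and over all genes together it was 1.03. Among nuclear members this ratio was 1.203 in complex IV, 1.09 in complex I, 1.08 in complex V, 1.03 in complex III and 0.961 in complex II. Among mitochondrially encoded members it was 0.822 in complex III, 0.827 in complex V, 0.925 in complex IV and 0.970 in complex I. In complexes I, IV and V the nuclear sum was above 1 and the mitochondrial sum below 1, on TMM-scaled CPM and as shares of counts. In complex III the nuclear sums overlapped between the groups, and their share of counts was 0.2565% in shHNRNPC cells and 0.2569% in shcontrol cells. No test of a difference between the complexes was made.

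**Figure D4:**
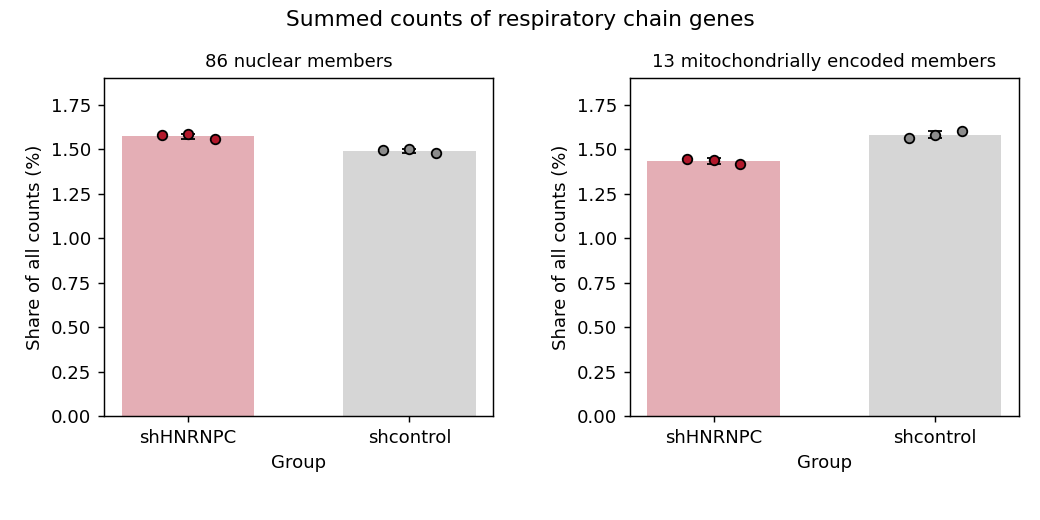
Share of all counts (vertical axis, %) taken by the 86 nuclear members (left panel) and the 13 mitochondrially encoded members (right panel) in shHNRNPC and shcontrol cells. Bars are means with SD and points are the 3 libraries of a group, and the nuclear share averages 1.57% in shHNRNPC cells and 1.49% in shcontrol cells, the mitochondrial share 1.43% in shHNRNPC cells and 1.58% in shcontrol cells.

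The genes that express the mitochondrial genome were read from a separate list of 32, covering its transcription and the processing of its RNA. In this list 3 were higher and 14 lower, with a median log2 fold change of −0.08, against 29.8% higher and 31.3% lower over all tested genes, and 4 were higher and 12 lower with the correction. TFAM, which packages mitochondrial DNA and starts its transcription, had 35.3, 35.7 and 33.4 CPM in shHNRNPC libraries, against 53.2, 55.9 and 56.0 CPM in shcontrol libraries. It was 1.58-fold lower, a log2 fold change of −0.66 (SE 0.054, edgeR adjusted p = 1.17e-14), and −0.33 after the GC and length correction. LRPPRC, which stabilises mitochondrial messages, had 171, 168 and 165 CPM in shHNRNPC libraries, against 229, 233 and 228 CPM in shcontrol libraries, a log2 fold change of −0.45 (adjusted p = 1.86e-18). FASTKD1, a mitochondrial RNA-binding protein, had 9.67, 9.01 and 8.03 CPM in shHNRNPC libraries, against 16.5, 15.8 and 18 CPM in shcontrol libraries, a log2 fold change of −0.92 (adjusted p = 4.86e-11). All of these were lower in every knockdown library. POLRMT, the mitochondrial RNA polymerase, had 125, 125 and 129 CPM in shHNRNPC libraries, against 115, 103 and 106 CPM in shcontrol libraries, a log2 fold change of 0.22 (adjusted p = 1.32e-06) that lost its call after the correction (0.05). SLIRP, the partner protein of LRPPRC and chosen after its values were seen, averaged 61.3 ± 3.44 CPM in shHNRNPC cells and 53.6 ± 2.22 CPM in shcontrol cells, a log2 fold change of 0.19 (adjusted p = 0.000782). KIAA0391, a subunit of mitochondrial RNase P, averaged 1.99 ± 0.550 CPM in shHNRNPC cells and 4.10 ± 1.16 CPM in shcontrol cells, a log2 fold change of −1.02 (adjusted p = 8.1e-05), with 45.9% of its exon sequence shared with another gene.

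Of 12 transcriptional regulators of respiratory genes, 2 were higher (16.7%) and 5 lower (41.7%), against 29.8% and 31.3% of all tested genes, and 3 were higher and 4 lower with the correction. PPARGC1A, the coactivator that promotes mitochondrial biogenesis, had 7.30, 6.73 and 8.20 CPM in shHNRNPC libraries, against 12.3, 13.5 and 12.9 CPM in shcontrol libraries. It was 1.74-fold lower, a log2 fold change of −0.80 (SE 0.109, edgeR adjusted p = 1.88e-08). YY1 averaged 108 ± 3.26 CPM in shHNRNPC cells and 123 ± 3.63 CPM in shcontrol cells, a log2 fold change of −0.19 (adjusted p = 1.88e-05). NRF1 and GABPA, the factors whose motif letters were searched above, had log2 fold changes of −0.27 (adjusted p = 0.00149) and −0.37 (adjusted p = 0.000149), the second being 0.00 with no call after the GC and length correction, and that of NRF1 lost its call without NC_3_3 (adjusted p = 0.0538). The 2 higher regulators were HCFC1 at 0.11 and ESRRA at 0.12, and ESRRA was called lower after the correction (−0.10).

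Assembly factors help build the complexes but are not part of them. Past 1.5-fold were 2 of 22 tested factors for complex IV and 2 of 10 for complexes II and III. For complex I it was 0 of 18 and for complex V 0 of 3, against 1791 of all 11831 tested genes. For complex IV, 8 of 22 were higher (36.4%) and 3 lower (13.6%), against 29.8% and 31.3% of all tested genes, and 9 were higher and 6 lower with the correction. COX14, needed for the translation and assembly of MT-CO1, had 18.6, 17.2 and 16.6 CPM in shHNRNPC libraries, against 50.5, 49.3 and 49.4 CPM in shcontrol libraries. It was 2.85-fold lower, a log2 fold change of −1.51 (SE 0.064, edgeR adjusted p = 1.11e-24). HIGD1A, a hypoxia-induced protein that binds complex IV, had 32.8, 30.5 and 32.3 CPM in shHNRNPC libraries, against 49.2, 51.0 and 49.6 CPM in shcontrol libraries, a log2 fold change of −0.65 (adjusted p = 7.23e-14). COA4 and COX19 were higher, at 0.36 (adjusted p = 1.3e-12) and 0.42 (adjusted p = 2.18e-05).

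For complexes II and III, 3 of 10 assembly factors were higher and 3 lower, which is close to the shares over all tested genes, and with the correction none was higher and 6 were lower. TTC19, which acts on complex III after its Rieske protein is inserted, had 15.6, 15.3 and 14.6 CPM in shHNRNPC libraries, against 30.9, 29 and 29.6 CPM in shcontrol libraries. It was 1.97-fold lower, a log2 fold change of −0.98 (SE 0.075, edgeR adjusted p = 1.41e-15). LYRM7, the chaperone of the Rieske protein, had 18.7, 19.96 and 17 CPM in shHNRNPC libraries, against 28.5, 30.6 and 28.2 CPM in shcontrol libraries, a log2 fold change of −0.65 (adjusted p = 2.38e-10). The Rieske protein gene itself, UQCRFS1, averaged 245 ± 0.641 CPM in shHNRNPC cells and 229 ± 7.47 CPM in shcontrol cells, a log2 fold change of 0.09 (adjusted p = 0.00357). UQCC3 was higher at 0.27 (adjusted p = 1.06e-05) and had no call once GC content and length were corrected for (0.08). SDHAF2, which attaches the flavin to SDHA, was higher at 0.37 (adjusted p = 0.00995) and lost its call without SI_3 (0.0621) or NC_3_3 (0.100), with DESeq2 (0.0600) and with the correction (0.0695).

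For complex I, 7 of 18 assembly factors were higher (38.9%) and 2 lower (11.1%), against 29.8% and 31.3% of all tested genes, and 7 were higher and 6 lower with the correction. TIMMDC1, which assembles the membrane arm, had 301, 303 and 295 CPM in shHNRNPC libraries, against 247, 244 and 241 CPM in shcontrol libraries, a log2 fold change of 0.30 (edgeR adjusted p = 9.76e-14). TMEM186 and DMAC1, also factors for the membrane arm, were higher at 0.55 (adjusted p = 3.94e-09) and 0.37 (adjusted p = 1.04e-07). NDUFAF5 was lower at −0.43 (adjusted p = 2.54e-05), with no call after the GC and length correction (−0.16). Of the 3 factors tested for complex V, ATPAF1, the chaperone of the F1 beta subunit, was higher at 0.40 (adjusted p = 3.91e-12). TMEM70, a factor for the c ring, was lower at −0.38 (adjusted p = 7.84e-08), and ATPAF2, the chaperone of the alpha subunit, had no call (0.05, adjusted p = 0.575) but was called lower with the correction (−0.18, adjusted p = 0.0257).

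**Figure D5:**
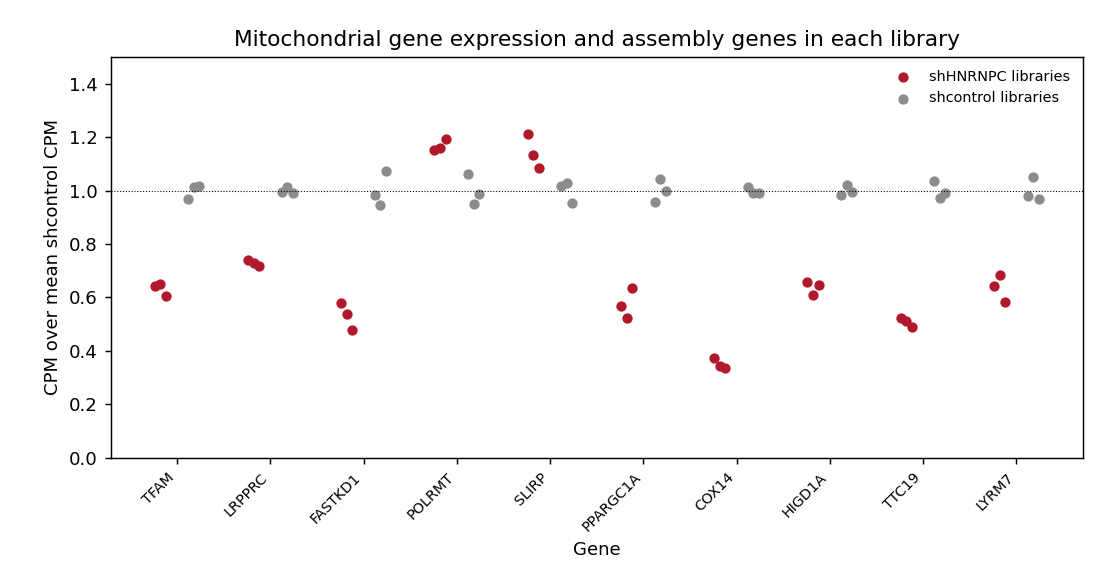
CPM in each library divided by the mean of the shcontrol libraries (vertical axis, 1.0 is that mean) for genes that express the mitochondrial genome, regulate respiratory genes or assemble the complexes (horizontal axis), with shHNRNPC libraries in red left of shcontrol libraries in grey. COX14, TTC19, FASTKD1, PPARGC1A, TFAM, HIGD1A, LYRM7 and LRPPRC are lower in all 3 shHNRNPC libraries than in any shcontrol library, and POLRMT and SLIRP are higher. The genes shown were picked, and no assembly factor called higher is among them. Of the tested assembly factors, 8 of 22 for complex IV were higher and 3 lower, and 7 of 18 for complex I were higher and 2 lower.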

How the data were processed

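RNA was extracted with Trizol and made into libraries with the NEBNext Ultra RNA kit, per the labels' protocols. STAR, HTSeq 0.6.0 and DESeq2 are named in the submitters' processing notes, and the build, annotation and use of strand are not given there or in the labels. The design text speaks of a microarray, whereas the files hold sequencing counts. The counts deposited by the authors are raw whole numbers. The deposited log2 fold changes are the authors' own. The deposited p-values and adjusted p-values are also the authors' own. Columns named SI and NC were taken as shHNRNPC and shcontrol libraries by group, since their suffixes do not match the replicate numbers of the titles. Another 24 columns of per-library values were not used. Every row carries a gene name. Values listed for 3 libraries follow the order SI_3, SI_3_2, SI_3_3 and NC_3, NC_3_2, NC_3_3. Within groups the libraries differed from each other by more than counting noise (chi-square per gene 1.56 to 2.50), and between groups by 29.5 to 33.6.

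Genes were filtered with filterByExpr by group, scaled by TMM and compared with glmQLFTest in edgeR 4.0.16 (R 4.3.3), adjusted by Benjamini-Hochberg over all 11831 tested genes at a threshold of 0.05. Standard errors come from the fold change and its test statistic. The script was tested on simulated data. The GC and length correction used splines on the longest coding transcript in GENCODE 29 as offsets, and which transcripts these cells use was not determined. Exon overlaps were also read from GENCODE 29. Alternatives were other scalings, other filters, DESeq2 1.42.0, limma 3.58.1, the correction, and leaving out each library. The members, lists and rules were chosen with earlier results of these data known. Named genes were HNRNPC, every mitochondrially encoded member, CYC1 and CYCS, subunits with tissue partners, members past 1.5-fold, in each complex the 4 smallest adjusted p and the 2 widest fold changes each way, and in each related list the 3 smallest adjusted p and the widest fold change each way. Other members named with values were chosen after their values were seen. NDUFS1, NDUFA6, COX7B2 and COX8C were not analysed here. The NRF1 letters searched were shortened to the core of the motif after a longer form had been searched and seen in fewer members.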

Additional observations from a re-analysis of the deposited data

How the results depend on the processing

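No paired analysis was possible because the columns of the libraries carry no replicate number of the sample titles. Of the alternatives to the reported fit, the correction for GC content and transcript length moved the most. With it, nuclear members had 31 higher and 28 lower, against 48 and 9 in the reported fit, with a median log2 fold change of 0.058, and mitochondrially encoded members had 0 higher and a median of −0.136. Nuclear complex I then had 10 higher, 12 lower and a median of −0.025, complex II had 2 lower, complex III had a median of 0.12, complex IV had 6 higher, 5 lower and a median of 0.15, and complex V had 7 lower and a median of 0.077. Single genes whose sign turned under this correction were MT-ND1 (−0.0059), NDUFA5 (0.012), SDHB (−0.12), UQCRB (0.16), ATP5S (0.030), COX4I1 (−0.081), COX6B1 (−0.16), COX8A (−0.21), ATP5MC1 (−0.17), ATPAF2 (−0.18) and ESRRA (−0.099). With library size alone the medians were 0.11 for nuclear members, −0.158 for mitochondrially encoded members, 0.11 for complex I, 0.017 for complex II, 0.157 for complex III and 0.095 for complex V, complex II had 1 higher, mitochondrially encoded members had 1 higher and 11 lower, and CYCS was at −0.035. With DESeq2, nuclear complex I had 1 lower and complex II 1 higher. The cause of these shifts was not tested. Leaving out 1 library gave between 1 and 3 higher in complex II, CYCS values between −0.011 and 0.028 (−0.0014 without SI_3 and −0.0049 without NC_3_3), and ATPAF2 values between −0.030 and 0.11. Of the 67 called members, 10 lost their call in at least 1 of these 6 fits, each named with its values in the report. MT-ATP8 and the other members under the filter are limited by their counts.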

Other observations

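Iron-sulfur cluster and coenzyme Q synthesis supply the cofactors and the mobile electron carrier of the chain. Of 15 tested genes of iron-sulfur cluster synthesis, 5 were higher and 2 lower in shHNRNPC cells, with a median log2 fold change of −0.05, against 29.8% higher and 31.3% lower over all tested genes, and the split was the same with the correction for GC content and transcript length. ISCU, the scaffold on which clusters form, had 91.0, 88.3 and 97.3 CPM in shHNRNPC libraries, against 78.6, 72.9 and 70.2 CPM in shcontrol libraries, a log2 fold change of 0.32 (edgeR adjusted p = 2.44e-08). NFS1, the enzyme that gives the sulfur, had 40.0, 40.8 and 40.0 CPM in shHNRNPC libraries, against 50.4, 52.1 and 50.1 CPM in shcontrol libraries, a log2 fold change of −0.34 (adjusted p = 3.25e-07). The 2 partners in the same step therefore moved in opposite directions, and the groups of both were apart. ISCA2, a late-acting carrier, was higher at 0.35 (adjusted p = 6.77e-07).

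Of 13 genes of coenzyme Q synthesis, 3 were higher (23.1%) and 2 lower (15.4%), against 29.8% and 31.3% of all tested genes, and with the correction for GC content and transcript length 1 was higher and 5 were lower. COQ10B, a protein that binds coenzyme Q, had 35.9, 35.2 and 35.5 CPM in shHNRNPC libraries, against 47.6, 43.0 and 47.2 CPM in shcontrol libraries, a log2 fold change of −0.37 (edgeR adjusted p = 2.15e-07). COQ9, a lipid-binding protein of the synthesis complex, was lower at −0.14 (adjusted p = 0.000161), and COQ3, a methyltransferase, was higher at 0.26 (adjusted p = 0.0017).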
